A study of Homo sapiens with 4 samples.

Results

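Nonsense-mediated mRNA decay (NMD) removes transcripts in which translation stops too early. Measured here were 9 of its factors in human neurons: UPF1, UPF2, UPF3A, UPF3B, SMG1, SMG5, SMG6, SMG8 and SMG9. They were selected by gene symbol, and all 9 were found among 77973 gene identifiers of the gene table. UPF1 is an RNA helicase, and UPF2 links it to UPF3A or UPF3B, which bind the exon junction complexes that splicing leaves on a transcript. A stop codon well upstream of the last exon junction therefore marks a transcript for decay. The kinase SMG1, with its partners SMG8 and SMG9, phosphorylates UPF1, and phosphorylated UPF1 recruits the endonuclease SMG6 and the adaptor SMG5. Unannotated (cryptic) exons often bring an early stop codon, so transcripts that carry them can be substrates of this pathway.

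All 4 libraries came from KOLF2.1J, an established line of human induced pluripotent stem cells, carrying a dCas9-BFP-KRAB construct for CRISPR interference and a doxycycline-inducible NGN2 gene, which drives neuronal differentiation. Puromycin-selected stable pools, not clones, carried a lentiviral guide RNA and were differentiated to cortical neurons through spheroids. The control library had a non-targeting guide, and the knockdown library a guide against TDP-43, which binds RNA and keeps cryptic exons out of transcripts. The azacytidine library had the non-targeting guide and 5 µM 5-azacytidine for 72 hours, a nucleoside that inhibits DNA methylation, and the combined library had the TDP-43 guide and the same treatment. The day of harvest was not given per library. Transcripts were sequenced as full-length complementary DNA by PacBio Iso-Seq from polyadenylated RNA, with first-strand synthesis by MarathonRT. With 1 library per group, none of the differences has a replicate check.

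Depth was between 466337 and 767621 reads assigned to genes, and between 288441 and 448742 of these fitted a transcript. TARDBP, the gene of TDP-43, had 104 reads in the control, 72 in the knockdown, 73 in the azacytidine and 43 in the combined library. Its log2 ratio was -0.67 in knockdown against control, which passed (adjusted exact binomial p = 0.0170), and -0.73 in combined against azacytidine, which did not (adjusted exact p = 0.0573). In edgeR's additive model over the 4 libraries the adjusted p for the knockdown was 0.486. Markers of neurons summed to between 1690 and 2438 CPM (read counts scaled to library size) in the 4 libraries, and none of the 7 genes was at 0 in every library. Markers of proliferating cells (5 genes) summed to 660 and 649 CPM in the control and knockdown libraries, against 46.5 and 43.3 CPM in the azacytidine and combined libraries. Markers of neural progenitors (6 genes) summed to 739 and 676 against 164 and 130 CPM, and those of pluripotent cells (5 genes) to between 229 and 350.2 CPM. Astrocyte markers (4 genes, AQP4 at 0 throughout) reached at most 13.1 CPM. Fibroblast-like markers (4 genes, DCN at 0 throughout) lay between 4.13 and 78.8 CPM and were also lower in the azacytidine-treated libraries. The proliferating, progenitor and fibroblast-like marker levels moved with azacytidine, and their part in the azacytidine ratios below was not tested. The neuron sum was higher in azacytidine against control (2260 against 2007 CPM) but lower in combined against knockdown (1690 against 2438 CPM). In such bulk samples, fewer cells of a type and less RNA per cell cannot be told apart.

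All 9 factors were detected in every library, with between 17 and 107 reads each. CPM values were scaled by effective library size, and CPM per kb divides them by transcript length in kilobases. Whether the reads of a gene rise with transcript length here was not tested, so an order in CPM per kb depends on that division. In CPM alone, the means were 134 for UPF3A, 128 for SMG1, 117 for SMG5, 91.1 for UPF2 and 84.0 for SMG6. UPF3B had 62.0, UPF1 52.7, SMG9 51.0 and SMG8 34.5. By mean CPM per kb over the 4 libraries, UPF3A was highest at 58.8, with libraries between 45.4 and 92.6. UPF3B followed at 26.5 (16.9 to 33.8), then SMG5 at 25.6 (15.6 to 29.9), UPF2 at 16.8 (11.2 to 24.2) and SMG6 at 14.4 (10.5 to 21.5). SMG9 at 11.6 (7.31 to 16), SMG8 at 10.6 (7.59 to 12.6), UPF1 at 10.2 (9.09 to 11.6) and SMG1 at 8.24 (6.77 to 10.1) were lowest. In CPM per kb, UPF3A did not overlap any other factor in this range over libraries, while each of the other neighbours in the order overlapped. In CPM, its range (103 to 210) overlapped that of SMG1 (105 to 156). Only 38.3% of UPF3A reads fitted a transcript, against 73.2% of UPF3B reads. Counted from reads that fit a transcript, UPF3A had 113 over the 4 libraries and UPF3B 101.

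**Figure D1:**
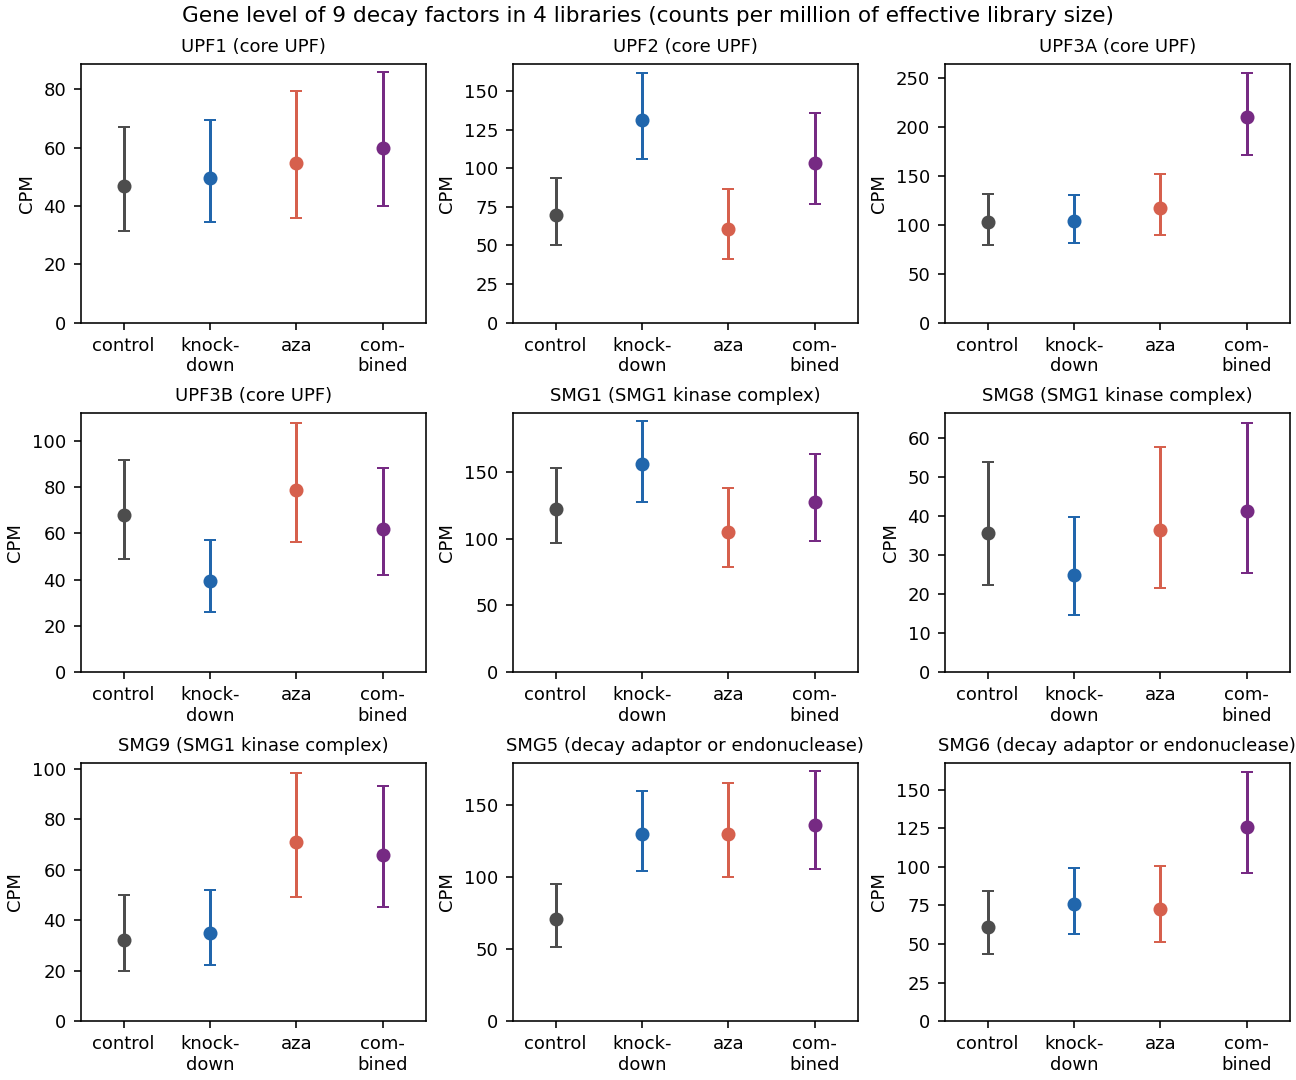
Level of each factor in CPM (y axis, from 0) in the control, knockdown, azacytidine (aza) and combined libraries; points are single libraries and bars are exact 95% Poisson intervals, which cover counting error only. UPF2 is higher in both knockdown libraries, SMG9 in both azacytidine-treated libraries, SMG5 is lowest in the control, and UPF3A is highest in the combined library.

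Of the core factors, UPF1 varied least. UPF1 (ENSG00000005007.14, hg38 chromosome 19, 18831959 to 18868230, plus strand) had 29 reads in the control, 34 in the knockdown, 27 in the azacytidine and 29 in the combined library. These correspond to 46.8, 49.6, 54.6 and 59.8 CPM, and the 4 counting intervals overlapped. Its log2 ratio was 0.08 for knockdown against control (95% interval -0.67 to 0.85) and 0.13 for combined against azacytidine (-0.68 to 0.94). Changes of UPF1 inside these intervals were not detectable at this depth.

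UPF2 (ENSG00000151461.20, chromosome 10, 11920022 to 12043170, minus strand), the bridge between UPF1 and the UPF3 proteins, had 43 reads in the control, 90 in the knockdown, 30 in the azacytidine and 50 in the combined library. In CPM these were 69.4, 131, 60.7 and 103, so both knockdown libraries were above both libraries without the TDP-43 guide, although the counting interval of the combined library overlapped those of the control and azacytidine libraries. Knockdown against control gave a log2 ratio of 0.91 (95% interval 0.38 to 1.48), which passed the two-sided exact binomial test after Benjamini-Hochberg adjustment over all genes (adjusted p = 0.00464). Combined against azacytidine gave 0.76 (0.08 to 1.47), which did not pass (adjusted exact p = 0.115). Scaled by total reads, the first ratio was 0.69 and missed the threshold at an adjusted exact p of 0.0536. From reads that fit a transcript it was 0.97 (adjusted exact p = 0.0542). With the deposited counts not halved, UPF2 passed in both pairs (adjusted exact p = 6.53e-06 and 0.00616), as did 6.31% of 11091 genes called higher in that setting, but both ratios stayed under 1. That setting enters each read as 2 counts, which lowers exact p-values at nearly the same ratios (0.92 and 0.76), so it is no separate check.

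UPF3A (ENSG00000169062.15, chromosome 13, 114281601 to 114305817, plus strand) had 64 reads in the control, 71 in the knockdown, 58 in the azacytidine and 102 in the combined library. The first 3 libraries lay at 103, 104 and 117 CPM and the combined library at 210.4 CPM, with an interval that overlapped none of the others. Accordingly the ratio to the knockdown library was 1.02 on the log2 scale (95% interval 0.57 to 1.48, adjusted exact p = 2.79e-05) and that to the azacytidine library 0.84 (0.36 to 1.33, adjusted exact p = 0.00469). In the pairs with the control, knockdown gave 0.00 (-0.50 to 0.52) and azacytidine 0.19 (-0.35 to 0.72). With the trend of the ratios over transcript length removed, the ratio to the knockdown library was smaller, at 0.60 (adjusted exact p = 0.0229). That to the azacytidine library was then 0.94 (adjusted exact p = 0.00126), and knockdown against control 0.30 (adjusted exact p = 0.474). With reads that fit a transcript, the ratio to the azacytidine library was 0.98 and did not pass (adjusted exact p = 0.121). The rise of UPF3A therefore rests on the combined library.

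UPF3B (ENSG00000125351.14, chromosome X, 119834022 to 119852998, minus strand), the paralog of UPF3A, had 42 reads in the control, 27 in the knockdown, 39 in the azacytidine and 30 in the combined library. Its levels were 67.7, 39.4, 78.9 and 61.9 CPM, lowest in the knockdown library. The knockdown log2 ratio was -0.77 without azacytidine (95% interval -1.54 to -0.05, adjusted exact p = 0.112) and -0.35 with it (-1.09 to 0.37). Neither passed the test, although scaling by total reads made the first -0.995 with an adjusted exact p of 0.036. With counts not halved, which enters each read as 2 counts and so lowers the exact p, its adjusted exact p was 0.00851.

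Within a library, the number of UPF3A reads per UPF3B read needs no scaling. It was 1.52 in the control (95% interval 1.02 to 2.31) and 1.49 in the azacytidine library (0.974 to 2.29), against 2.63 in the knockdown (1.67 to 4.26) and 3.40 in the combined library (2.24 to 5.29). The knockdown libraries thus had the higher ratios, with intervals that overlap those of the libraries without the guide. Counted from reads that fit a transcript, the values were lower, at 0.80, 0.92, 1.25 and 1.58 in the same order, and all 4 intervals overlapped. The difference between the counts arises because 38.3% of UPF3A reads but 73.2% of UPF3B reads fitted a transcript.

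SMG1 (ENSG00000157106.18, chromosome 16, 18804860 to 18926408, minus strand), the kinase that phosphorylates UPF1, had 76 reads in the control, 107 in the knockdown, 52 in the azacytidine and 62 in the combined library. Its levels of 123, 156, 105 and 128 CPM had overlapping intervals, and log2 ratios lay between -0.28 and 0.35 without passing the test in any pair. SMG1 has near-identical pseudogene copies, among which reads may have been split, so its counts are uncertain. No pseudogene reached the minimum for testing, and the most abundant identifier of SMG1P5 had 11, 30, 4 and 19 reads in the same order.

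SMG8 (ENSG00000167447.13, chromosome 17, 59209400 to 59215239, plus strand) had 22, 17, 18 and 20 reads in the control, the knockdown, the azacytidine and the combined library. The mean of 19.25 reads fell under the minimum of 20 for testing. In CPM these were 35.5, 24.8, 36.4 and 41.3, and the intervals overlapped.

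SMG9 (ENSG00000105771.14, chromosome 19, 43727983 to 43754962, minus strand), which with SMG8 holds SMG1 in check, had 20 reads in the control, 24 in the knockdown, 35 in the azacytidine and 32 in the combined library. The untreated libraries lay at 32.3 and 35.0 CPM and the azacytidine-treated libraries at 70.8 and 66.0 CPM, so both treated libraries were above both untreated ones. Their counting intervals overlapped, since those of the untreated libraries reached 49.8 and 52.1 CPM and those of the treated libraries began at 49.3 and 45.2 CPM. Azacytidine against control gave a log2 ratio of 1.12 (95% interval 0.30 to 2.01, adjusted exact p = 0.0204), and combined against knockdown 0.91 (0.11 to 1.74, adjusted exact p = 0.0490). SMG9 therefore passed the adjusted test in both pairs, but under the fold minimum in the second. With a lower filter of 5 mean reads the second p was 0.0581, with the length trend removed 0.0510, and with no filter the pair of adjusted exact p-values was 0.0667 and 0.151.

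SMG5 (ENSG00000198952.8, chromosome 1, 156249224 to 156282825, minus strand), an adaptor that brings decapping and deadenylation to UPF1, had 44 reads in the control, 89 in the knockdown, 64 in the azacytidine and 66 in the combined library. At 71.0 CPM the control was the lowest, and the other libraries were at 129.9, 129.5 and 136 CPM. Each single treatment gave a log2 ratio of 0.86 to the control, with adjusted exact p-values of 0.00775 for the knockdown and 0.0133 for azacytidine. Adding the other treatment gave only 0.07 in both further pairs, which did not pass. Since both first ratios share the control library, they are not independent. From reads that fit a transcript they were 0.52 and 0.82, and neither passed (adjusted exact p = 0.496 and 0.159), nor did they from uniquely assigned reads (0.50 and 0.60, adjusted exact p = 0.565 and 0.392). Scaled by total reads, the knockdown ratio was 0.64 (adjusted exact p = 0.0764). SMG5 overlaps PAQR6 on the same strand, which itself had between 3 and 9 reads.

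SMG6 (ENSG00000070366.14, chromosome 17, 2059839 to 2303785, minus strand), the endonuclease that cuts near the early stop codon, had 38, 52, 36 and 61 reads in the control, the knockdown, the azacytidine and the combined library. The combined library was highest at 126 CPM, and the others lay at 61.3, 75.9 and 72.9 CPM. Its counting interval overlapped those of the knockdown and azacytidine libraries. Combined against knockdown gave a log2 ratio of 0.73 (95% interval 0.17 to 1.29, adjusted exact p = 0.0206), and combined against azacytidine 0.78 (0.17 to 1.43, adjusted exact p = 0.0647). In the pairs with the control, the ratios were 0.30 for the knockdown and 0.25 for azacytidine, and neither passed. The ratio to the knockdown library no longer passed from reads that fit a transcript (0.65, adjusted exact p = 0.155) or with no filter on low counts (adjusted exact p = 0.0673). With counts not halved, which enters each read as 2 counts and so lowers the exact p, the ratio to the azacytidine library passed (adjusted exact p = 0.00162).

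Whether a factor differed with the knockdown or with azacytidine was asked in 2 pairs of libraries that share none. A call needed an adjusted exact binomial p under 0.05 and an absolute log2 ratio of at least 1 in the same direction in both pairs. For the knockdown, 0 of 8 factors tested were called, against 0.97% of all 8145 genes tested, and 1 (UPF2) was higher at an unadjusted p under 0.05 in both pairs, where 5.83% of all genes were higher and 1.53% lower. For azacytidine, 0 of 8 were called, against 9.8% of all genes, and 1 (SMG9) was higher at an unadjusted p under 0.05 in both pairs, where 9.32% of all genes were higher and 13% lower. Without the fold minimum, 0 factors were called higher with the knockdown, where 2.77% of all genes were, and SMG9 was called higher with azacytidine, where 6.31% of all genes were. Additive models over the 4 libraries, which use the interaction as error, called 0 factors for either treatment in edgeR and in DESeq2. These models called 0.0368% and 0.0859% of all genes for the knockdown and 10.3% and 3.29% for azacytidine. In edgeR's quasi-likelihood test, the adjusted p was 0.447 for UPF2 with the knockdown and 0.132 for SMG9 with azacytidine.

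In single pairs, all adjusted calls of the factors were higher and 0 were lower. Knockdown against control had 2 of 8 (UPF2 and SMG5), against 16.4% of all genes called higher and 3.73% called lower. Combined against azacytidine had 1 of 8 (UPF3A), against 9.09% higher and 5.93% lower. Azacytidine against control had 2 of 8 (SMG5 and SMG9), against 12.2% higher and 13.8% lower, and combined against knockdown 3 of 8 (UPF3A, SMG6 and SMG9), against 16.8% higher and 25.5% lower. The median log2 ratios of the 8 factors in these pairs were 0.21, 0.20, 0.22 and 0.46, beside 0.18, 0.05, 0.05 and -0.09 over all genes tested. The pairs share libraries, so these medians are not 4 independent values. Scaled by total reads, the median of the factors in knockdown against control was -0.01 and that of all genes -0.04.

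**Figure D2:**
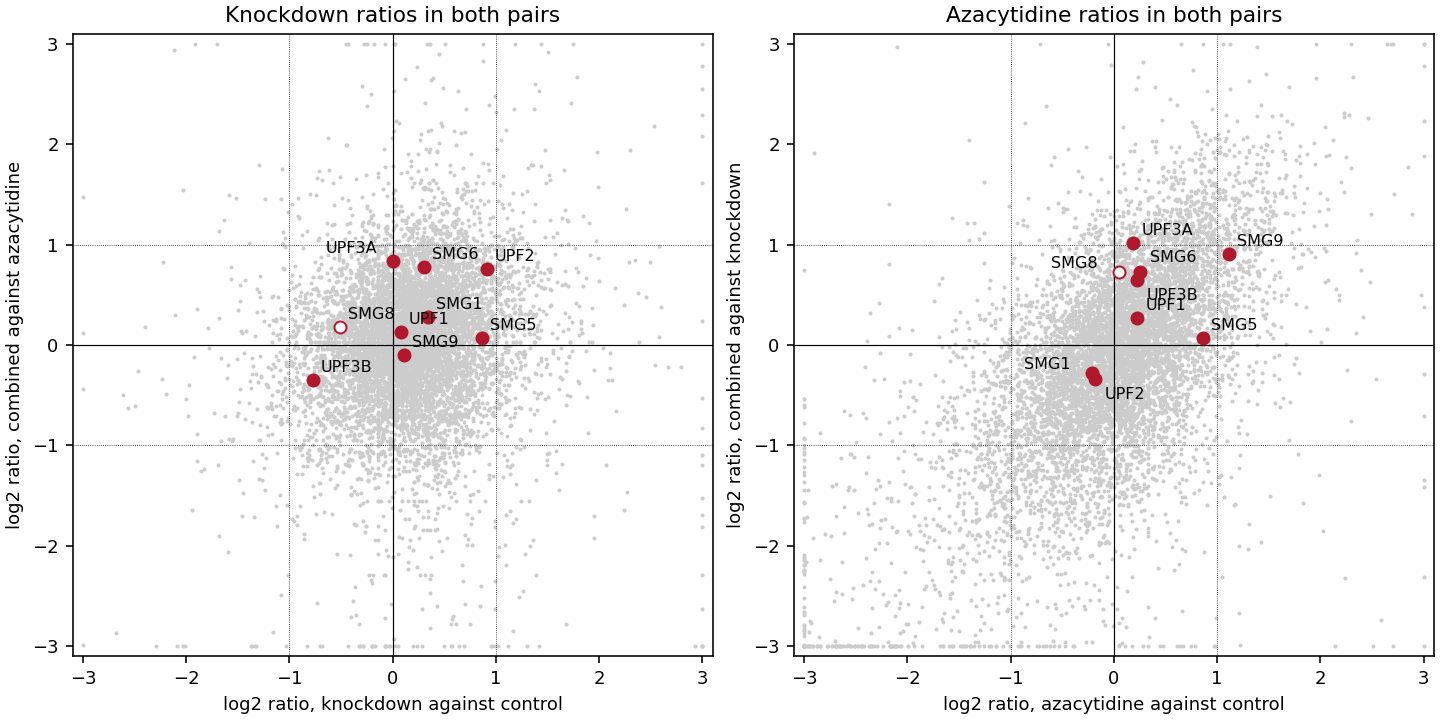
Log2 ratios of each factor (labelled, red; SMG8, which was not tested, open) over all 8145 genes tested (grey, values beyond 3 drawn at the edge) in the knockdown pairs (left) and the azacytidine pairs (right); dotted lines mark the fold minimum. No factor lies beyond the minimum in both pairs; UPF2 at 0.91 and 0.76 and SMG9 at 1.12 and 0.91 come nearest.

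How completely the factors were read differed between them. Over the 4 libraries, the share of gene reads that fitted a transcript of the annotation was 83.2% for UPF1, 81.5% for SMG1, 76.6% for SMG8, 73.2% for UPF3B, 69.5% for SMG6, 67.1% for UPF2, 66.7% for SMG9, 47.5% for SMG5 and 38.3% for UPF3A. Of the reads that fitted a transcript, 69.1% were full-length for SMG8, 50.2% for SMG9 and 33.7% for UPF3B, but 1.24% for SMG1, whose read-weighted transcript length of 15532 bases was the longest. Length alone did not order the factors: UPF3A, at 2272 bases, had 19.1% full-length reads. The limited number of full-length reads restricts what can be said of the isoforms of SMG1 (3 such reads), UPF1 (7.49) and SMG6 (10).

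**Figure D3:**
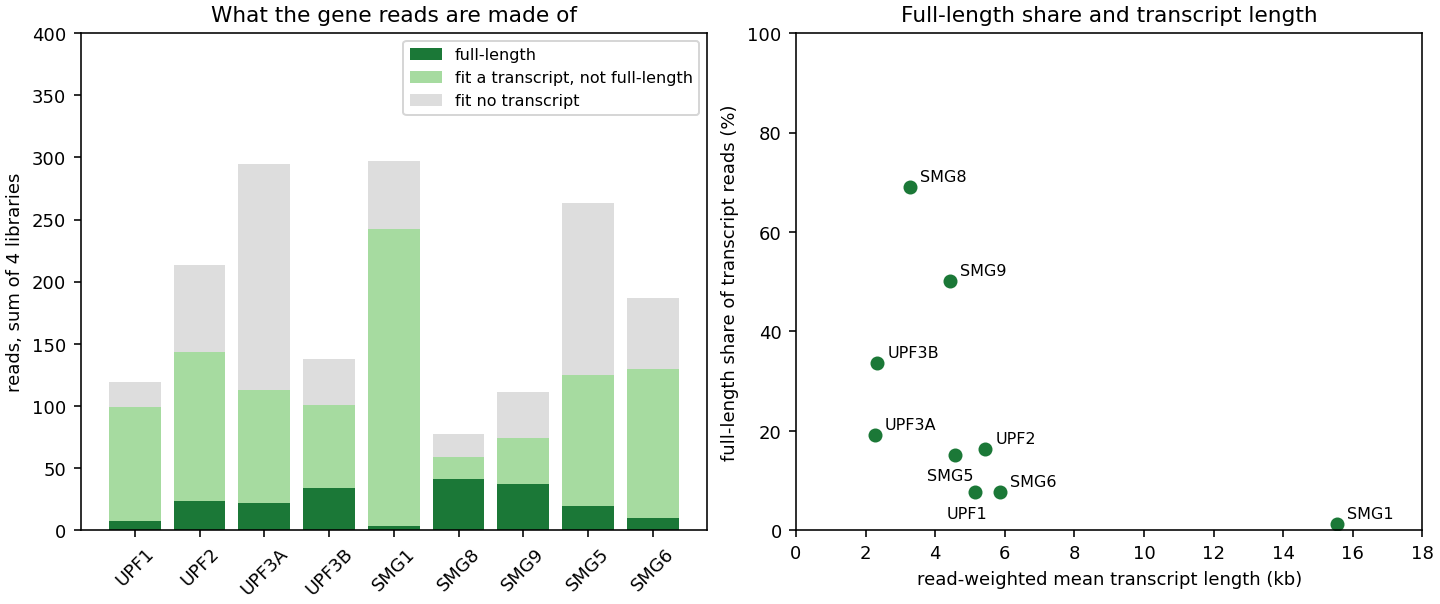
Left, reads of each factor summed over the 4 libraries, split into full-length reads, other reads that fit a transcript, and reads that fit none. Right, full-length share of transcript reads (%) against read-weighted mean transcript length (kb), 1 point per factor; SMG8 is highest at 69.1% and SMG1 lowest at 1.24%.

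The 9 factors had 99 transcripts in the deposited annotation, of which 32 had at least 1 read and 16 at least 10. A read that fits several transcripts was divided among them in the deposited estimates, so transcript reads can be fractions. Events that separate the transcripts are printed here with 15 flanking bases on each side of the mature transcript in lower case and the variable bases in capitals, 5′ to 3′, from GENCODE 29 transcript sequences (GRCh38). They are shown because inclusion of each was read from these transcripts. All 4 lie in coding sequence.
UPF1 exon extension (33 bases, chr19:18853072-18853104, plus strand): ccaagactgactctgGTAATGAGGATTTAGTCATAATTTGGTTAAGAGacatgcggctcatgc
UPF3A cassette exon (99 bases, chr13:114286302-114286400, plus strand): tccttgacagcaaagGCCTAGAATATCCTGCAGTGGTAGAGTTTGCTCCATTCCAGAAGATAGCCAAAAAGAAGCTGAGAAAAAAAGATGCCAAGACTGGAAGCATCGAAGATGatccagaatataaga
UPF3B cassette exon (39 bases, chrX:119840646-119840684, minus strand): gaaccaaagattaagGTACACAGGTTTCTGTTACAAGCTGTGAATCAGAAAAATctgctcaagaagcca
SMG9 cassette exon (113 bases, chr19:43744772-43744884, minus strand): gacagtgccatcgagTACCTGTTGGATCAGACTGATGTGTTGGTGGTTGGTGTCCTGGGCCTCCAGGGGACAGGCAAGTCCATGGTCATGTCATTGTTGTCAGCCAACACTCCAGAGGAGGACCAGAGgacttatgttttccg

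The first 3 events have lengths divisible by 3 and keep the reading frame, and the SMG9 exon does not. Transcript usage was tested for 9 transcripts of UPF1, UPF2, UPF3A and UPF3B by Fisher's exact test against the other transcript reads of the gene. A call needed an adjusted p under 0.05 over 14131 transcripts and at least 10 percentage points in the same direction in both pairs. For the knockdown 0 of 9 were called, against 0.807% of all transcripts tested, and 1 (UPF1-204) was lower at an unadjusted p under 0.05 in both pairs, where 1.17% of all transcripts were. For azacytidine 0 of 9 were called, against 1.26%, and 0 had such an unadjusted p in both.

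UPF1 was read mainly as UPF1-201, with 16.7, 18.6, 11.9 and 19.6 estimated reads in the control, the knockdown, the azacytidine and the combined library. UPF1-207 adds the 33-base extension and had 0, 9.42, 4.02 and 7.42 reads. The extension was thus included in 0% of the informative control reads (which allows up to 17.6%), and in 33.6%, 25.3% and 27.5% of those of the knockdown, azacytidine and combined libraries. The lengthened part is known as the regulatory loop of the helicase. Knockdown against control passed for UPF1-207 (33.6 percentage points, adjusted Fisher's exact p = 0.0329, where 7.49% of all transcripts tested passed), and combined against azacytidine did not (7.41 points, adjusted exact p = 1). UPF1-204, typed as a retained intron, had 7.33 and 4.11 reads in the control and azacytidine libraries and 0 in both knockdown libraries (adjusted exact p = 0.0366 and 0.261). Among uniquely assigned reads UPF1-204 had 0 in every library and UPF1-207 had 0, 3, 1 and 3. The UPF1 shares therefore rest mostly on divided reads.

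The estimated reads of UPF2 were split between UPF2-201 and UPF2-202, which have the same reading frame of 1272 codons and differ at the 5′ end. UPF2-201 had 20.4, 40.9, 16.3 and 16.9 estimated reads and UPF2-202 had 6.06, 18.1, 7.66 and 15.1 in the same order. Among uniquely assigned reads UPF2-201 had 0 in every library and UPF2-202 had 4, 11, 5 and 10. The UPF2-201 reads were therefore all divided reads, and no read was assigned to it alone. UPF2-202 made up a larger share in the combined library than in the knockdown library, by 16.4 percentage points, and the difference did not pass (adjusted Fisher's exact p = 0.557).

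UPF3A with the 99-base exon (mainly UPF3A-202) has a frame of 476 codons and without it (UPF3A-201) of 443; the exon lies in the part of UPF3A that binds UPF2. The exon was included in 53.4% of the informative estimated reads of the control (12.1 of 22.6, 95% Wilson interval 33.0% to 70.8%), 60.2% of the knockdown (14.3 of 23.7, 38.8% to 75.5%), and 45.9% of the azacytidine library (10.2 of 22.3, 26.9% to 65.3%). In the combined library it was 80.0% (30.5 of 38.2, 66.6% to 90.8%), the highest of the 4. Uniquely assigned reads gave 57.1%, 62.5%, 53.8% and 80.0%. The included reads also count UPF3A-212, typed as a retained intron, which covers the exon. It had 0, 2.65, 1.00 and 1.40 estimated reads in the same order, and such reads do not show the exon spliced in. UPF3A-202 alone held 50.3%, 46.4%, 40.2% and 71.1% of the UPF3A transcript reads. UPF3A-202 was 30.9 percentage points higher in the combined than in the azacytidine library, which did not pass after adjustment (Fisher's exact p = 0.0181, adjusted p = 0.203). In rounded reads, UPF3A-202 had 29 in the combined library against 12, 12 and 9 in the control, the knockdown and the azacytidine library, and UPF3A-201 had 8 against 11, 9 and 12. UPF3A reads that fitted no transcript were also most numerous in the combined library, at 61 against 40, 46 and 35.

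UPF3B was read mostly without its 39-base exon, as UPF3B-202 with 470 codons, against 483 codons in UPF3B-201. The exon was included in 20% of control reads (6 of 30, 95% Wilson interval 9.51% to 37.3%), 6.25% of knockdown reads (0.888% to 23.6%), 5.00% of azacytidine reads (0.710% to 19.5%) and 14.3% of combined reads (6.15% to 33.5%). The intervals overlapped, and no pair passed (lowest adjusted Fisher's exact p = 0.486).

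SMG8 averaged under the minimum of 20 transcript reads and was not tested, but its reads were assigned to another transcript in the azacytidine library than in the rest. SMG8-201 had 18, 14, 0 and 10.7 estimated reads in the control, the knockdown, the azacytidine and the combined library. SMG8-202, which begins upstream at position 59209400 instead of 59210035 and has the same 991 codons, had 0, 0, 14 and 1.30 reads. All 14 transcript reads of the azacytidine library were thus assigned to SMG8-202 (95% Wilson interval 78.5% to 100%), and 10 of them fitted it alone. None of these reads was full-length, whereas SMG8-201 had 16, 14, 0 and 9.74 full-length reads. The combined library, also treated with azacytidine, had 1 uniquely assigned read of SMG8-202. SMG8-201 had 0 uniquely assigned reads in every library, so all of its reads also fitted another transcript.

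**Figure D4:**
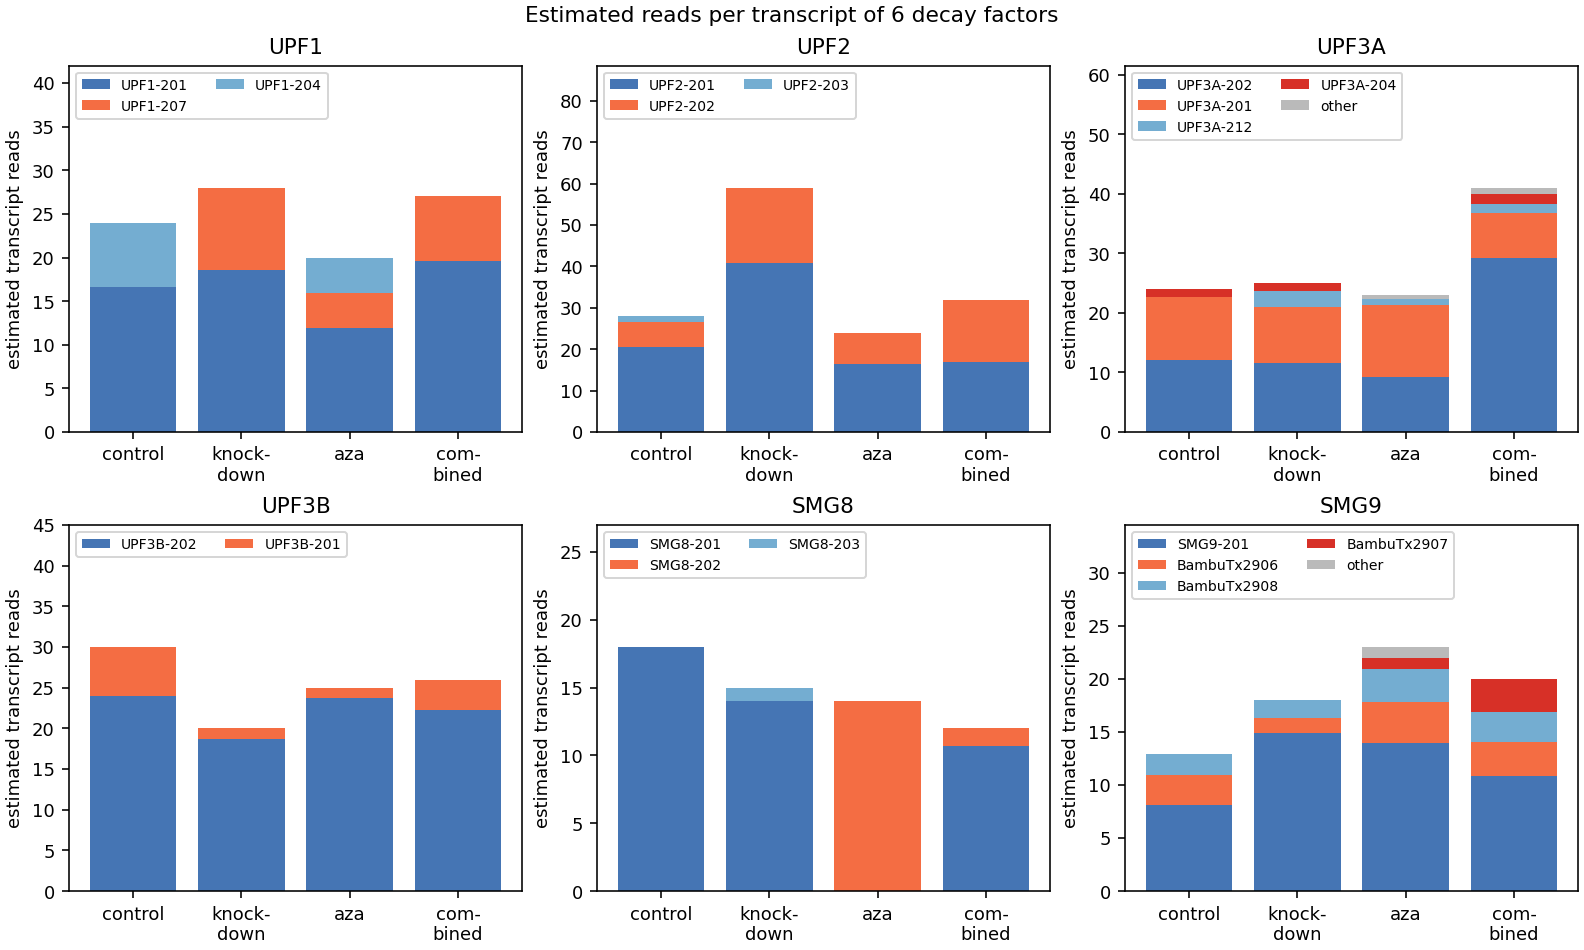
Estimated reads per transcript (y axis, from 0) in the 4 libraries for 6 factors; colours are transcripts, largest first, and grey is the rest. UPF1-207 is at 0 in the control, UPF3A-202 is largest in the combined library, and SMG8-202 takes all 14 reads of the azacytidine library.

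Unannotated transcripts were found for SMG9 alone among the 9 factors, and there were 3. SMG9-201, the main transcript, had 8.13, 14.9, 14.0 and 10.9 reads in the control, the knockdown, the azacytidine and the combined library. BambuTx2906, the only unannotated one with at least 10 reads in total (11.3), had 2.81, 1.45, 3.81 and 3.19 reads and differs by an unannotated intron from 43729050 to 43732857 (hg38, chromosome 19). BambuTx2908, with 1.95, 1.67, 3.17 and 2.80 reads, skips the 113-base exon printed above and was named after its values were seen. BambuTx2907, likewise named after its values were seen, extends an exon by 66 bases and had 0, 0, 1.06 and 3.11 reads. Together they held 36.6%, 17.3%, 34.9% and 45.5% of the SMG9 transcript reads, with 95% Wilson intervals that overlapped.

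Because the skipped SMG9 exon is not a multiple of 3 bases long, its reading frame was followed in the transcript sequence. From the start codon of SMG9-201, whose frame has 520 codons and ends after the last junction, BambuTx2908 reached a stop after 205 codons. That stop lies 753 bases upstream of its last exon junction, more than the 50 bases of the usual rule for transcripts subject to the pathway. Skipping was the minor event in each library: the exon was included in 84.9%, 90.7%, 85.6% and 86.0% of the informative reads, with overlapping intervals. Of the other transcripts named here whose coding frame could be followed without missing bases, 0 had a stop more than 50 bases upstream of the last junction.

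As a readout of the pathway, reads were counted in transcripts that GENCODE 29 types as nonsense-mediated decay. Among the 9 factors 3 such transcripts are annotated (1 each of SMG1, SMG8 and SMG9), and all were at 0 reads in every library. With between 244 and 324 transcript reads of the factors per library, Wilson intervals allow up to between 1.17% and 1.55%. Over all genes, decay-type transcripts held 1.66% of transcript reads in the control (95% Wilson interval 1.62% to 1.71%), 1.60% in the knockdown (1.57% to 1.64%), 1.87% in the azacytidine (1.83% to 1.92%) and 2.01% in the combined library (1.96% to 2.07%). The azacytidine-treated libraries were the higher ones, and those intervals did not overlap the untreated ones. The same libraries had more full-length reads (35.7% and 31.2% of transcript reads, against 28.2% and 23.3%), and the part of this in the share was not tested. In 18 genes listed as known targets of the pathway, such as splicing factors with decay-linked isoforms, the share was 13.7%, 12.5%, 17.1% and 16.9%, with overlapping intervals. Some of these genes, such as PTBP2 and GAS5, have no transcript of this type and enter only the total. PTBP2 held 123, 200, 94 and 86 of the list's transcript reads in the same order, so the share also depends on its level.

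**Figure D5:**
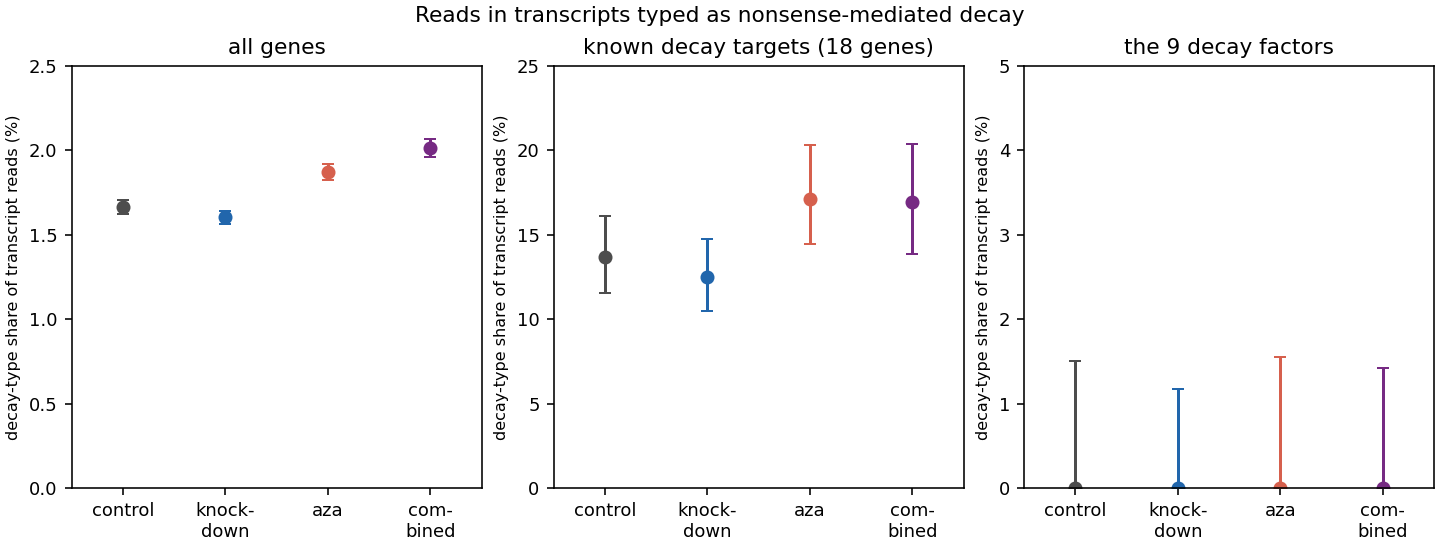
Share of transcript reads (%) in transcripts typed as nonsense-mediated decay, in each library, for all genes, 18 known targets and the 9 factors; bars are 95% Wilson intervals and each panel has its own scale from 0. Over all genes the share is 1.66% and 1.60% in the untreated and 1.87% and 2.01% in the azacytidine-treated libraries, and it is 0 for the factors.

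Other genes linked to the pathway were described from 5 lists of 62 identifiers, of which 40 passed the filter. The lists include 18 known targets of the pathway, 10 of them tested, and 9 identifiers of SMG1 pseudogenes, 0 of them tested. For the knockdown 0 of 40 were called, beside 0.97% of all genes; 3 higher and 1 lower had an unadjusted exact binomial p under 0.05 in both pairs, beside 5.83% and 1.53% of all genes, and the additive edgeR and DESeq2 models called 0. For azacytidine 2 of 40 were called, beside 9.8% of all genes, 1 higher and 1 lower. RUVBL2, a helicase of the complex that supports SMG1 assembly, rose from 23 to 42 and from 16 to 36 reads (log2 ratios 1.18 and 1.65, adjusted exact p = 0.00682 and 0.000302). MOV10, an RNA helicase that works with UPF1, fell from 39 to 12 and from 74 to 16 reads (log2 ratios -1.33 and -1.68, adjusted exact p = 0.0144 and 1.82e-05). The additive DESeq2 model and sums of transcript counts (37 genes tested) called 0 genes of the lists for azacytidine. The median log2 ratio of the 40 genes was 0.03 and 0.07 in the knockdown pairs and -0.18 and -0.23 in the azacytidine pairs.

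By list, the exon junction complex had 6 of 10 genes tested and 0 called. Its most abundant tested member ACIN1 had 125, 181, 124 and 140 reads in the control, the knockdown, the azacytidine and the combined library, and the least abundant, SAP18, had 26, 16, 25 and 16. The termination and surveillance partners had 11 of 12 tested, with RUVBL2 and MOV10 the only calls. The least abundant tested was GSPT2, a release factor, with 22, 29, 16 and 17 reads. The decay machinery had 13 of 13 tested and 0 called, from CNOT1, a scaffold of deadenylation, with 157, 230, 114 and 148 reads to DDX6, a decapping helicase, with 28, 45, 30 and 11.

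The known targets had 10 of 18 tested and 0 called. PTBP2, a neuronal splicing regulator, was the most abundant with 196, 453, 152 and 120 reads, and passed in knockdown against control (log2 ratio 1.06, adjusted exact p = 6.65e-17) but not in combined against azacytidine (-0.31, adjusted exact p = 0.251). GAS5, a non-coding RNA gene whose spliced transcript is a target, was the least abundant with 35, 33, 22 and 15 reads. The median log2 ratio of the tested targets was -0.19 and -0.40 in the knockdown pairs and -0.26 and -0.48 in the azacytidine pairs.

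The genes whose levels followed the median profile of the 8 factors most closely were TPD52, TYRO3 and DNAJC7. Their root mean square distances were 0.047, 0.047 and 0.049 on the log2 scale over the 4 libraries. With only 4 points such likeness is common: 13.0% of 8137 genes lay within 0.2.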

How the data were processed

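Alignment used minimap2 and hg38 and transcripts came from Bambu, per the file headers; versions are not given in the sources used here. The deposited gene and transcript tables hold the authors' estimated counts, and a further table holds counts of uniquely assigned reads. Every gene count was even to within 0.00031, and 0 unique counts were odd, so counts were divided by 2 (a count of 2 is 1 read). The reason is not stated.

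Libraries were scaled by TMM (edgeR 4.0.16, R 4.3.3). Genes averaging at least 20 reads (8145) were tested pair by pair of libraries with the exact binomial test, two-sided (scipy 1.17.1), and Benjamini-Hochberg adjustment. Log2 ratios used a pseudocount of 0.5. Such p-values compare libraries, not conditions. Transcripts needed 10 reads in total and a gene mean of 20. DESeq2 1.42.0 served in alternatives. Shares have 95% Wilson intervals of rounded reads, ratios exact Clopper-Pearson intervals and levels exact Poisson intervals; a count of 0 allows 3 reads. All cover counting error only, with reads taken as independent, and not the spread between libraries of a group. Reads can be copies of 1 amplified molecule, which would make the intervals too narrow and the exact p-values too low. GENCODE 29 types were matched by identifier and introns for 90 of 99 transcripts of the factors and 192165 of 392871 transcripts of all genes. The code was tested on simulated data.

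The factors, lists and tests were chosen with earlier results of these data known. Genes named outside the factors are the calls in both pairs, the most and least abundant tested member of each list (1 is not reported here), the 3 nearest profiles and TARDBP. For transcripts they are the most read one per factor, calls, and unannotated ones with at least 10 reads; other transcripts were named for the events shown.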

Additional observations from a re-analysis of the deposited data

Results flagged for a closer look

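For 2 factors, the knockdown ratio had opposite signs without and with azacytidine, and in each case the difference was not tested. SMG8 had a log2 ratio of -0.51 for knockdown against control and 0.18 for combined against azacytidine. SMG9 had 0.11 and -0.10 in the same pairs. Among all genes tested, 42.8% had opposite signs in these pairs.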

How the results depend on the processing

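Of 264 single-gene ratios recomputed under the alternatives, 225 kept their direction and side of the threshold, 14 no longer passed, 5 newly passed and 20 reversed. The 225 include 32 with a pseudocount of 2, which cannot change the p-value. They also include 31 with a filter of 5 mean reads and 29 with no filter, which cannot change the ratio. With uniquely assigned counts only 3 factors could be tested. Those that no longer passed were 3 of SMG9 with other filters, 1 of SMG9 with the length trend removed, 5 of SMG5, 2 of UPF2, 2 of SMG6 and 1 of UPF3A. Those that newly passed were UPF3B with total reads and, without halving, UPF2, SMG6 and UPF3B, the last in 2 pairs. Not halving enters each read as 2 counts, which by itself lowers exact p-values at nearly the same ratios. The causes of the other changes were not tested. Reversed log2 ratios of knockdown against control were -0.14 for UPF1, -0.11 for SMG9 and -0.22 for UPF3A with total reads, -0.019 for UPF1 and -0.10 for UPF3A with DESeq2 size factors, and -0.0093 for UPF1 with the length trend removed. With that trend removed, azacytidine against control was 0.042 for SMG1 and -0.040 for UPF3A, and combined against knockdown 0.21 for SMG1. With uniquely assigned counts, combined against azacytidine was 0.32 for UPF3B and -0.12 for SMG5, azacytidine against control -0.25 for UPF3B and 0.063 for SMG1, and combined against knockdown -0.024 for SMG5. With sums of transcript counts, chosen after seeing the data, azacytidine against control was -0.054 for UPF1 and -0.055 for UPF3B, combined against azacytidine 0.22 for UPF3B, -0.057 for SMG1 and -0.28 for SMG5, and knockdown against control -0.036 for UPF3A.

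For azacytidine, 1 factor (SMG9) was called with total reads (9.94% of all genes) and 1 without the fold minimum (16.3%), against 0. Of the pathway lists, the knockdown called 1 of 48 without halving (1.9% of all genes) and 2 of 40 without the fold minimum (3.52%), against 0. Azacytidine called 5 of 40 without the fold minimum (16.3%), 1 with the length trend removed (8.67%), 1 in edgeR (10.3%) and 0 in DESeq2 (3.29%), against 2. Fewer genes of the lists could be tested with unique counts, where 0 of 26 were called (4.33%), and with transcript sums, where 0 of 37 were (5.41%). Without halving, 1 of 15 transcripts of the factors (UPF1-204) was called lower with the knockdown, beside 0.826% of all transcripts. The decay-type share over all genes was 1.85%, 1.72%, 2.14% and 2.28% with unique counts and 1.81%, 1.72%, 2.06% and 2.12% with full-length counts, for the control, the knockdown, the azacytidine and the combined library. The additive models pair the libraries by the other treatment; there was no replicate number to pair by, with 1 library per group. No library could be left out, since every comparison would lose a group. Depth limits the factors of few reads most: the 95% interval of the SMG8 knockdown log2 ratio ran from -1.52 to 0.46.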
